A study of Mus musculus with 4 samples.

Results

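Prox1, Cd44, Prom1, Cd24a, Mex3a, Msi1, Hopx and Krt19 are genes used as markers of intestinal progenitor cells, of reserve stem cells or of the stem cells of adenomas. These 8 genes, chosen by name, were followed among the 27514 genes that the gene tables of all 4 libraries shared. Their level was measured as CPM, the UMIs of the gene per 1000000 UMIs of the cells summed, in epithelial cells of mouse small intestinal adenomas that had been assigned to 5 classes by marker genes, and a UMI stands for 1 captured transcript. None of the 8 genes was used to assign a cell to a class.

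Single-cell 3′ RNA libraries had been made from adenomas of C57BL/6 mice that were 11 weeks old, labelled male, and in all cases carried the ApcMin/+ allele. In 2 libraries (ApcMin) the genotype was ApcMin/+;Lef1 +/+, and in 2 libraries (VApcMinL) it was ApcMin/+;Lef1 fl/fl; Villin-Cre, so that Cre from the Villin promoter had been present in intestinal epithelial cells from development onwards and the deletion was constitutive. Replicate 1 of both groups was prepared with version 2 of the reagent kit and replicate 2 with version 3, each from several tumors that were pooled, dissociated and not sorted. No label tied a library to a single animal, so the spread between libraries may in part be technical. Between genotypes, p-values measure the spread between libraries that is left after the kit. Between classes, or cycling and non-cycling cells, they measure how unevenly the difference recurred across libraries, as the library was a block. In what follows, 4 values in a row are given kit by kit, first the kit 2 libraries and then the kit 3 libraries, and ApcMin before VApcMinL within each kit.

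The epithelium of the small intestine is renewed from stem cells at the crypt base, which depend on Wnt signals. In Apc-mutant adenomas the pathway stays active without a ligand, and the tumor cells express target genes of the TCF/LEF factors, among them secreted and intracellular inhibitors of the pathway. Besides the crypt base stem cells, rarer or more slowly dividing cells have been described as a reserve that can regenerate the crypt, and genes such as Mex3a, Msi1, Hopx and Krt19 have been used to find them. Prox1, Cd44, Prom1 and Cd24a, in contrast, are mostly known as markers of adenoma progenitors and of tumor stem cells, although each is also expressed in some normal cells.

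Lef1, the gene targeted in VApcMinL mice, was measured first. In adenoma cells its level was 11.2, 31.2, 39.9 and 25.4 CPM, from 109, 340, 491 and 1245 UMIs. In the kit 2 pair the library labelled VApcMinL was thus 1.35 higher on the log2 scale than the library labelled ApcMin, against its label, while in the kit 3 pair it was 0.54 lower on that scale. Counts of 3′ ends do not tell a transcript with deleted internal exons from an intact one and so do not measure the deletion itself, but every direction between genotypes given below rests on labels that the kit 2 pair did not bear out. Xist was at 0 and 0.0813 CPM in adenoma cells of the libraries labelled ApcMin and at 1209 and 323 CPM in those labelled VApcMinL, although all 4 were labelled male, so genotype and the sex of the animals cannot be told apart. The libraries held from 44660305 to 128247396 UMIs, and between 20.4% and 61.6% of the barcodes with at least 2000 UMIs exceeded the mitochondrial limit, most of all in ApcMin replicate 2. Adenoma cells expressed the gate list of Wnt inhibitors (Notum, Wif1, Nkd1, Axin2, Dkk2, Dkk3) at a summed level of 449, 1670, 1323 and 483 CPM, against 29.3 to 36.9 CPM in crypt cells. Lef1, which was not part of the gate, had no more than 4.42 CPM in crypt cells and no more than 1.05 CPM in enterocytes of any library. At most 11 of the barcodes with at least 2000 UMIs were shared between any 2 libraries.

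Of 11286 cells, 9300 were epithelial and 6306 of these passed exactly 1 gate. They were divided into 2935 adenoma cells, 474 crypt cells, 2375 enterocytes, 471 secretory cells (goblet, Paneth and enteroendocrine) and 51 tuft cells. Crypt cells had RNA of Olfm4, Cyp2e1, Slc12a2, Rgmb or Scn2b with little Wnt inhibitor RNA, and can include cells other than stem cells. All classes came from dissociated tumors, and whether cells outside the adenoma class were normal or mutant was not tested. The tuft class was small, with 7 cells in each kit 2 library and 16 and 21 cells in the kit 3 libraries, so 1 UMI in it was worth several CPM. As a measure of free RNA, barcodes with 1 to 100 UMIs were summed in each library. A class at or below that level is described as not above free RNA. The share of free RNA in a cell was not measured, so such a level can still hold RNA of the cell itself. Because levels are shares of the UMIs of a class, fewer expressing cells and less RNA per cell cannot be told apart from them.

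The upstream sequences of the members that separated adenoma from crypt cells most, Prox1 and Mex3a, and of Cd44, which was at the same level in both, are shown for comparison. They are the 250 bases before the RefSeq transcript starts on GRCm38.p6, in the direction of transcription, and capitals mark matches to CTTTGA or CTTTGT on either strand, the core letters known to be bound by TCF/LEF proteins.
Prox1 promoter 1: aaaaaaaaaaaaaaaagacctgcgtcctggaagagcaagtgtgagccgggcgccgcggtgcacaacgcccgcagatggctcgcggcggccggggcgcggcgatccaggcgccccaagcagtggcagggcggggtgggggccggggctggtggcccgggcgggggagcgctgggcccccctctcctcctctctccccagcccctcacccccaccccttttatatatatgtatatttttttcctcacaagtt
Prox1 promoter 2: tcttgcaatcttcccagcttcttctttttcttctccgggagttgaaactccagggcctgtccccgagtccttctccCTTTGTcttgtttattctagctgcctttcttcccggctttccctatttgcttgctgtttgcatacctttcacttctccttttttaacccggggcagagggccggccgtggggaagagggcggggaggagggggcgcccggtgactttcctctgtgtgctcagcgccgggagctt
Mex3a promoter: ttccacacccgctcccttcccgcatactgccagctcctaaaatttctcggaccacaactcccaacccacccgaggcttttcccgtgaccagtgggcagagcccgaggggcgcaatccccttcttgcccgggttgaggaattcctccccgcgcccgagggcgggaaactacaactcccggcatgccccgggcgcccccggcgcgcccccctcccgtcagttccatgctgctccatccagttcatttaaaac
Cd44 promoter: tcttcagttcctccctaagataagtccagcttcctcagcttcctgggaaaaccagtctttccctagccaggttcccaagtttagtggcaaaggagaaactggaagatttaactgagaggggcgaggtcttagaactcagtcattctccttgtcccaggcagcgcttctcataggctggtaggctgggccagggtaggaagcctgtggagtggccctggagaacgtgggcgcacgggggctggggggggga
The Prox1 promoters lie at chr1:190170828-190171077 and chr1:190169516-190169765 on the minus strand, that of Mex3a at chr3:88531696-88531945 on the plus strand and that of Cd44 at chr2:102901666-102901915 on the minus strand. The second Prox1 promoter held CTTTGT, whose first base was 174 bases before the start, and the other 3 sequences held neither motif. RefSeq promoters were matched for 5 of the 8 members, and of their 8 promoters 1 had a match, whereas CTTTGA occurred in 13.8% and CTTTGT in 16.5% of 32851 mouse promoters of the same length, either of them in 27.6%. Cd24a, Msi1 and Krt19 were not matched. Both Prox1 promoters and the Mex3a promoter were rich in CG dinucleotides, with 20, 11 and 19, whereas that of Cd44 had 5 and the median promoter 6. A match describes these letters only and says nothing of binding.

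Adenoma cells were first compared with crypt cells, to ask which of the markers set adenoma cells apart from the crypt class. Prox1, Mex3a and Cd24a were higher in adenoma cells. The other 5 members were not called, and Cd44 was almost equal. These 3 of 8 members stand against 29.7% of the 11311 genes tested that were called in either direction, 16.6% that were called higher and 13.1% that were called lower, at an edgeR adjusted p (Benjamini-Hochberg) below 0.05. All 8 members passed the filter on low counts in this fit.

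Prox1 encodes a homeobox transcription factor known from lymphatic endothelium, enteroendocrine cells and colorectal tumors, and the gene lies on chromosome 1 (190118035 to 190170714, minus strand, GRCm38). In adenoma cells it was at 111, 305, 439 and 187 CPM, from 1081 to 9169 UMIs. In crypt cells it was at 3.97, 13.6, 6.36 and 28.1 CPM, from 10 to 127 UMIs. All 4 adenoma values lay far above all 4 crypt values. The difference was 4.30 on the log2 scale (SE 0.36, edgeR adjusted p = 6.90e-09) and ranged from 3.71 to 5.10 when each library in turn was left out. With adenoma cells chosen by other Wnt targets (Sp5, Apcdd1, Rnf43, Znrf3, Tnfrsf19) in place of the inhibitors it was 3.86. Both lists hold Wnt targets, and crypt cells had to be low in the list used. Prox1 is itself known as a Wnt target, so its difference is not independent of how the cells were chosen. The empty barcodes held Prox1 at 28.8, 55.8, 52.2 and 66.6 CPM. Crypt cells were therefore below free RNA in every library, at 0.122 to 0.422 times its level, whereas adenoma cells were at 2.81 to 8.41 times that level. Immune cells were lower still, at 0.0291 to 0.0617 times it. The part of free RNA in the Prox1 of crypt cells was not tested.

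The share of adenoma cells with a Prox1 UMI was compared after each cell had been thinned to 2000 UMIs, which sets the depth of all cells equal. It was 17.2% (exact 95% interval 13.7 to 21.2), 38.8% (34.6 to 43.0), 51.1% (45.5 to 56.7) and 28.3% (26.2 to 30.5). In crypt cells it was 1.47% (0.179 to 5.21), 2.67% (0.325 to 9.30), 1.45% (0.0367 to 7.81) and 3.61% (1.46 to 7.29). The unthinned shares in adenoma cells were 65.1%, 80.5%, 87.3% and 81.4%, at median depths of 20897, 17452.5, 31676 and 25106.5 UMIs. In immune cells, which should lack the gene, the thinned share was at most 0.532%. Many adenoma cells in each library thus had a Prox1 UMI at a depth at which very few crypt cells had one.

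Mex3a, an RNA-binding protein with a ubiquitin ligase domain, has been used to mark a slowly proliferating subset of crypt stem cells (chromosome 3, 88532395 to 88541396, plus strand). Its level in adenoma cells was 21.6, 22.3, 27.9 and 23.2 CPM, from 211 to 1136 UMIs. In crypt cells it was 8.33, 2.86, 5.36 and 15.5 CPM, from 21, 4, 16 and 70 UMIs. All 4 adenoma values exceeded all 4 crypt values, and the adenoma libraries lay close together. The difference was 1.53 (SE 0.28, log2, edgeR adjusted p = 0.000234). In the kit 3 pair alone it was 1.33 (SE 0.40, edgeR adjusted p = 0.0703) and was not called. The empty barcodes were at 3.71, 2.32, 3.75 and 9.64 CPM, so crypt cells exceeded free RNA by 1.23 to 2.25 times and adenoma cells by 2.40 to 9.59 times.

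Cd24a, a small cell surface glycoprotein known from Paneth cells, tuft cells and progenitors, is on chromosome 10 (43578284 to 43584265, plus strand). It has near-identical processed copies elsewhere in the genome, among which reads could have been split, so its absolute level is uncertain. It was at 548, 882, 490.0 and 331 CPM in adenoma cells and at 364, 325, 207 and 242 CPM in crypt cells. Adenoma cells were higher in each library, although VApcMinL replicate 2 adenoma cells were below ApcMin replicate 1 crypt cells. The difference was 0.87 (SE 0.23, log2, edgeR adjusted p = 0.00553). It was not called without VApcMinL replicate 1 (0.70, edgeR adjusted p = 0.0549), in the kit 3 pair alone (0.80, edgeR adjusted p = 0.224) or without the block (0.91, edgeR adjusted p = 0.126). Crypt cells were at 1.06 to 1.51 times the empty barcodes, and adenoma cells at 1.66 to 3.57 times.

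Cd44, the hyaluronan receptor and a well-known Wnt target of the crypt and of adenomas, is on chromosome 2 (102811141 to 102901665, minus strand). In adenoma cells it was at 119, 133, 115 and 111 CPM. In crypt cells it was at 116, 117, 99.1 and 107 CPM. The values overlapped and the difference was 0.04 (SE 0.23, log2, edgeR adjusted p = 0.936), with a sign that depended on the settings. Both classes were above the empty barcodes, which held 76.8, 78.1, 34.6 and 48.2 CPM. The Wnt target that marks crypts was therefore no higher in adenoma cells beyond its error.

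Prom1 (CD133), a pentaspan membrane glycoprotein of stem and progenitor cells, was at 217, 309.5, 237 and 227 CPM in adenoma cells. Crypt cells held it at 174, 198, 154 and 226 CPM. It was higher in adenoma cells of each library but by little, and the difference of 0.31 (SE 0.15, log2) was not called (edgeR adjusted p = 0.139), except with adenoma cells chosen by the other Wnt targets (0.52, edgeR adjusted p = 0.0120). Msi1, an RNA-binding protein of neural and intestinal stem cells, was at 18.3, 17.1, 13.4 and 13.4 CPM against 10.3, 19.3, 7.70 and 7.30 CPM. In VApcMinL replicate 1 the crypt cells were the higher, from 27 UMIs, and the difference of 0.51 (SE 0.30, edgeR adjusted p = 0.213) was not called. Both genes lie on chromosome 5, Prom1 from 43993620 to 44102032 (minus strand) and Msi1 from 115429599 to 115455698 (plus strand).

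Hopx, an atypical homeodomain protein without DNA binding and a marker of quiescent reserve cells, followed the reagent kit. In adenoma cells it was at 26.6, 18.2, 73.3 and 119 CPM and in crypt cells at 19.8, 19.3, 93.4 and 110.4 CPM. Both kit 3 libraries were above both kit 2 libraries in each of the 2 classes, and the empty barcodes showed the same step, with 13.2, 11.8, 57.1 and 73.9 CPM. The part of the kit, and of the larger gene table used with kit 3, in this step was not tested. Within libraries adenoma and crypt cells differed by -0.06 (SE 0.22, log2, edgeR adjusted p = 0.875). Krt19, a keratin of simple epithelia whose promoter has marked long-lived cells above the crypt base, was at 1463, 1231, 1133 and 1502 CPM in adenoma cells and at 1425, 1786, 1599 and 1819.5 CPM in crypt cells. It was lower in adenoma cells of 3 libraries. The difference of -0.37 (SE 0.39, log2) was not called (edgeR adjusted p = 0.527) unless only these 2 classes entered the fit (-0.42, SE 0.12, edgeR adjusted p = 0.0265). The reported fit uses the same estimate of the spread for all 5 classes, and the part of tuft cells in this SE was not tested. Krt19 in empty barcodes was at 1305, 1607, 936 and 1077 CPM, close to the level in cells. Hopx lies on chromosome 5 (77086988 to 77115121) and Krt19 on chromosome 11 (100140810 to 100148665), both on the minus strand.

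**Figure D1:**
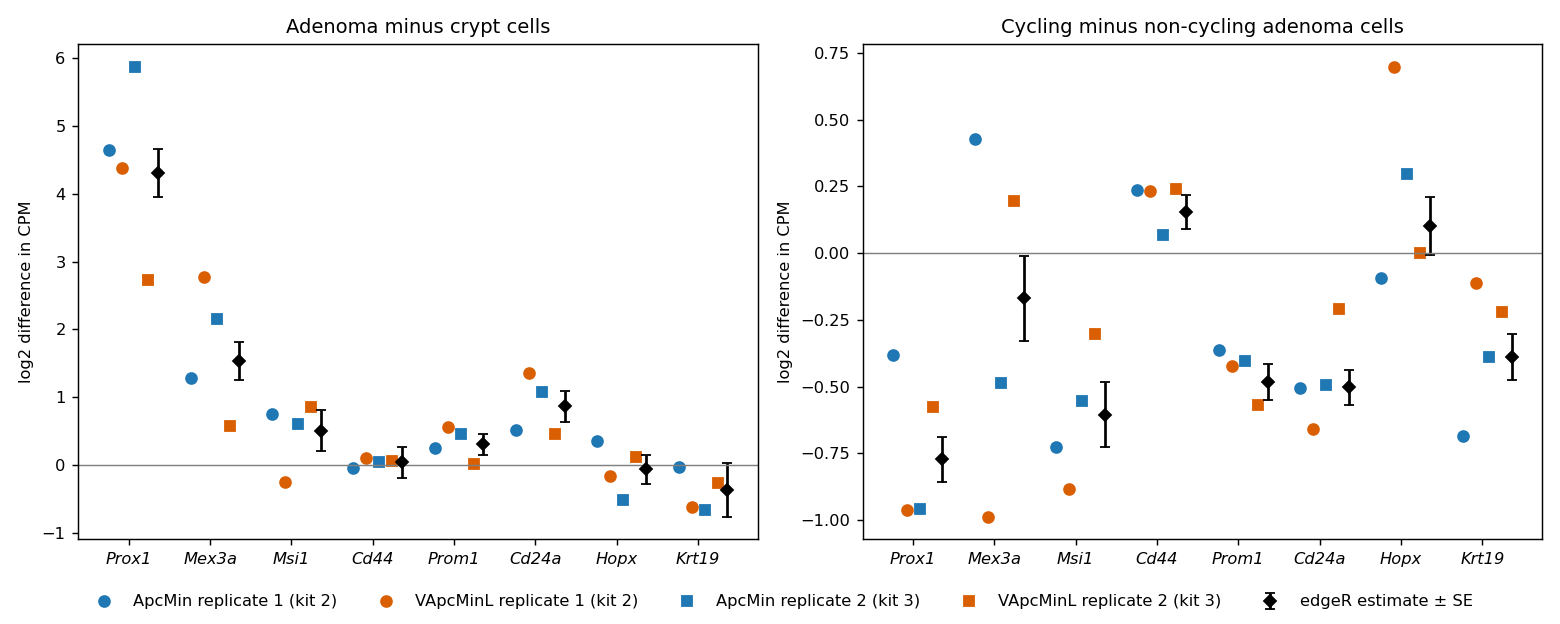
Log2 difference in CPM of each of the 8 markers between adenoma and crypt cells (one panel) and between cycling and non-cycling adenoma cells (the other), with 1 point per library and the edgeR estimate with its SE as a black diamond. Prox1 stands at 4.30 against crypt cells, far above the other members, and its points lie below 0 in all 4 libraries for cycling cells, where the estimate is -0.77.

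Other genes of stem cells and of the Wnt pathway were counted in the same comparison, from lists chosen with earlier results of these data known. Of 20 further stem cell genes, 19 were tested, 9 were higher and 6 lower in adenoma cells, with a median of 0.57 on the log2 scale against 0.04 over all genes. Among those higher were Cdkn1c, an inhibitor of the cell cycle, at 3.29, Igfbp4, a secreted binding protein of insulin-like growth factors, at 2.01, and Clu, a chaperone known from regenerating crypts, at 1.75 (edgeR adjusted p of 7.63e-08, 8.73e-07 and 0.000204). Lower were Fgfbp1, a binding protein of fibroblast growth factors, at -5.30, Smoc2, a matricellular protein of crypt base stem cells, at -1.87, and Lrig1, a receptor that restrains ErbB signals, at -1.13 (edgeR adjusted p of 2.20e-12, 6.97e-06 and 8.03e-05). Lgr5, the receptor that defines crypt base stem cells, had a difference of 0.92 (SE 0.37) and was not called (edgeR adjusted p = 0.0638). Of 17 Wnt target genes outside the adenoma gate, 15 were tested, 6 were higher and 0 lower, with a median of 0.82, and the largest changes were in the transcription factor Sox17 at 3.09, the inhibitor of differentiation Id2 at 2.79 and the TCF factor Tcf7 at 2.59 (edgeR adjusted p of 2.49e-08, 1.62e-07 and 1.51e-06). Lgr5, Ascl2, Ephb2, Ephb3 and Sox9 stand in both lists. Adenoma cells had been chosen by Wnt target genes, so the Wnt list is not independent of that choice. Among keratins other than Krt19, Krt23 at 1.94 and Krt7 at 1.00 were higher (edgeR adjusted p of 0.000201 and 0.00279) and Krt20 at 0.21 was not called, while Krt8 and Krt18 belonged to the epithelial gate.

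Against enterocytes, the absorptive cells of the villus, 7 members were higher in adenoma cells, where 78.3% of all genes tested were called in either direction and 42.9% were called higher. Krt19, the remaining member, was not called, with a difference of -0.57 (SE 0.40, log2, edgeR adjusted p = 0.194). It was called lower in adenoma cells under a mitochondrial limit of 10% (-1.46, edgeR adjusted p = 5.27e-06), without a filter on low counts (-0.64, edgeR adjusted p = 0.00351) and with only the 2 classes in the fit (-0.71, edgeR adjusted p = 0.00622). The fitted differences were 4.92 for Prox1, 4.04 for Cd24a and 3.61 for Cd44. For Mex3a and Msi1, which passed the filter on low counts through other classes and were too low in enterocytes to pass it there, the size of the fitted difference depends on the prior count and is not given. Prom1 differed by 1.96 and Hopx by 0.60 (SE 0.22, edgeR adjusted p = 0.0163), and the call for Hopx was lost in 5 of the alternative settings.

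In enterocytes Cd44 was at 6.06, 9.64, 2.59 and 9.16 CPM, at most 0.190 times the empty barcodes. Msi1 was there at 0, 0.803, 0.165 and 0.737 CPM, from at most 7 UMIs. Mex3a was at 0.808, 0.536, 0.452 and 1.26 CPM, from 2 to 12 UMIs. All of these lay below free RNA in every library, as did Prox1 at 2.83 to 7.06 CPM, Cd24a at 9.67 to 35.5 CPM and Prom1 at 38.4 to 49.1 CPM. Prom1 was at 0.389 to 0.613 times free RNA, above Prox1 (0.0983 to 0.121) and Cd24a (0.0704 to 0.133). The part of free RNA in these levels was not tested. Krt19, at 1040.4, 1125, 1434 and 1769.9 CPM in enterocytes, was above free RNA in the kit 3 libraries and below it in the kit 2 libraries.

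Secretory cells carried less of most markers than adenoma cells. Prox1 (by 3.67), Mex3a (by 2.30), Msi1 (by 1.12), Cd44 (by 1.00) and Prom1 (by 0.63, all log2) were higher in adenoma cells, with edgeR adjusted p from 1.92e-08 to 0.00927. These 5 of 8 members stand against 43.6% of genes called in either direction and 22.7% called higher. Cd24a was at 719, 646, 477 and 487 CPM in secretory cells, overlapping adenoma cells, with a difference of -0.44 (SE 0.22, edgeR adjusted p = 0.115). Hopx and Krt19 were not called. The calls for Cd44, Prom1 and Msi1 were lost in the kit 3 pair alone, and those for Cd44 and Msi1 also without ApcMin replicate 1, which left 3 of the 5.

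The secretory class was not uniform for Prox1. As a whole it was at 8.64, 8.57, 15.5 and 33.8 CPM, below the empty barcodes. Its enteroendocrine cells, the hormone-producing cells in which Prox1 is known to act, were at 51.3, 70.7, 71.6 and 127 CPM, above the empty barcodes in every library. These values came from 4, 3, 11 and 38 UMIs, those of VApcMinL replicate 1 all from a single cell, and are given without a test.

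Tuft cells, the chemosensory cells of the epithelium, were the class with the highest Cd24a. It was at 6891, 12190.3, 4685 and 3343 CPM in tuft cells, from 405 to 721 UMIs, and every tuft cell thinned to 2000 UMIs had a UMI of it. All 4 tuft values were above all values of the other classes, and adenoma cells were lower by 3.20 on the log2 scale (SE 0.24, edgeR adjusted p = 1.07e-09). Of the 8 members, 2 were higher in adenoma than in tuft cells (Prox1 and Krt19) and 2 were lower (Cd24a and Hopx), where 26.2% of genes were called in either direction, 17.2% higher and 9.02% lower.

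Prox1 in tuft cells was at 136, 56.4, 91.0 and 159 CPM, from 8, 2, 14 and 29 UMIs. In ApcMin replicate 1 the tuft value exceeded the adenoma value of the same library, and in the other 3 libraries it was below. The difference of 1.47 (SE 0.44, log2, edgeR adjusted p = 0.0161) was not called in 6 of the alternative settings, including leaving out VApcMinL replicate 1 (1.26, edgeR adjusted p = 0.0858) or ApcMin replicate 2 (0.99, edgeR adjusted p = 0.128). Against secretory cells, however, tuft cells had more Prox1 by 2.19 on the log2 scale (SE 0.52, edgeR adjusted p = 0.00464). Prox1 was thus above free RNA in adenoma cells and below it in crypt cells and enterocytes. It was also above free RNA in enteroendocrine cells, though from only 4 and 3 UMIs in the kit 2 libraries. In tuft cells it was above free RNA apart from VApcMinL replicate 1 with its 2 UMIs, where it was at 1.01 times free RNA.

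Krt19 in tuft cells varied widely, at 629.5, 141, 1306 and 99.0 CPM from 37, 5, 201 and 18 UMIs. In ApcMin replicate 2, 97.5% of the 201 UMIs came from 1 cell. Adenoma cells were higher by 1.59 (SE 0.46, log2, edgeR adjusted p = 0.0134), a call that was lost without ApcMin replicate 1, without VApcMinL replicate 1 or without VApcMinL replicate 2. Hopx in tuft cells was at 17.0, 169, 292 and 198 CPM, from 1, 6, 45 and 36 UMIs. Adenoma cells were lower by 1.25 on the log2 scale (SE 0.31, edgeR adjusted p = 0.00427), and without ApcMin replicate 2 by 0.86 (edgeR adjusted p = 0.127), which was not called. Cd44 had 0 UMIs in the 7 tuft cells of VApcMinL replicate 1, which allows up to 42.9% of such cells to have a Cd44 UMI at this depth and sets no limit on the cells that express it, and was at 51.0 to 93.5 CPM in the other 3 libraries, with a difference from adenoma cells of 1.07 (edgeR adjusted p = 0.0604). Prom1 in tuft cells was at 119, 282, 208 and 258 CPM, Msi1 at 17.0, 56.4, 13.0 and 22.0 CPM from 1 to 4 UMIs, and Mex3a at 0, 0, 26.0 and 38.5 CPM from at most 7 UMIs. None of these 3 was called against adenoma cells.

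The 4 classes other than adenoma cells differed among themselves as well. Crypt cells had 6 members higher than enterocytes, where 72.9% of genes were called and 37.8% were higher, with Cd44 at 3.57 and Cd24a at 3.17 on the log2 scale, whereas Prox1 at 0.61 (SE 0.39, edgeR adjusted p = 0.166) and Krt19 were not called. Secretory cells exceeded crypt cells in Cd24a by 1.31 (edgeR adjusted p = 0.000174) and were below them in Cd44 by 0.96 (edgeR adjusted p = 0.00558), so 2 members were called where 30.9% of genes were (14.3% higher in crypt cells and 16.6% lower). Tuft cells had more Prox1, Cd24a and Hopx and less Krt19 than crypt cells, which is 4 members where 25.6% of genes were called (8.91% higher in tuft cells and 16.7% lower). Enterocytes had less than secretory cells of 7 members (66% of genes called, 34.9% lower), and less than tuft cells of 7 members and more of Krt19 (37.1% of genes called, 12.4% lower and 24.7% higher in enterocytes). Each of these counts against enterocytes, that of crypt cells too, includes Mex3a and Msi1, which passed the filter through other classes. In enterocytes they rested on 2 to 12 and 0 to 7 UMIs, and in tuft cells on 0 to 7 and 1 to 4. Tuft cells had more Prox1, Cd24a and Hopx and less Krt19 than secretory cells (18.6% of genes called, 5.98% higher in tuft cells and 12.6% lower). Mex3a was called higher as well, but rested on 0, 0, 4 and 7 UMIs in tuft cells, passed the filter through other classes, and was at no more than free RNA in secretory cells.

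The order of the class means was read with the spread over the 4 libraries. For Cd44 the order was adenoma (119 ± 9.70 CPM, SD, n = 4), crypt (109.9 ± 8.56), tuft (50.7 ± 38.6), secretory (45.8 ± 11.2) and enterocyte cells (6.86 ± 3.26), in which the step from crypt to tuft cells was not called (edgeR adjusted p = 0.0740) and the only called step between neighbours was the last (edgeR adjusted p = 4.99e-08). Prox1 fell from adenoma (260.4 ± 143) through tuft (111 ± 46.0) to secretory (16.6 ± 11.9), crypt (13.0 ± 10.9) and enterocyte cells (5.66 ± 1.92), and no neighbours among the last 3 were told apart. For Prom1 the means of adenoma (247 ± 42.2), tuft (217 ± 72.2) and crypt cells (188 ± 31.0) were not told apart, and neither were crypt and secretory cells (125 ± 14.6, edgeR adjusted p = 0.133), while enterocytes (41.8 ± 5.03) were below secretory cells. Mex3a followed the order adenoma, tuft, crypt, secretory and enterocyte, and only the step from secretory cells (3.93 ± 2.09) to enterocytes (0.765 ± 0.366) was called. Both ends of that step were below free RNA, at 0.713 to 0.996 and 0.121 to 0.231 times its level, from 3 to 25 and 2 to 12 UMIs. Msi1 followed the order tuft, adenoma, crypt, secretory and enterocyte, again with only the last step called, which rested on 0 to 7 UMIs in enterocytes. For Krt19 the means of crypt (1657 ± 183), secretory (1434 ± 315), enterocyte (1342 ± 331) and adenoma cells (1332 ± 179) had no called step between neighbours.

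**Figure D2:**
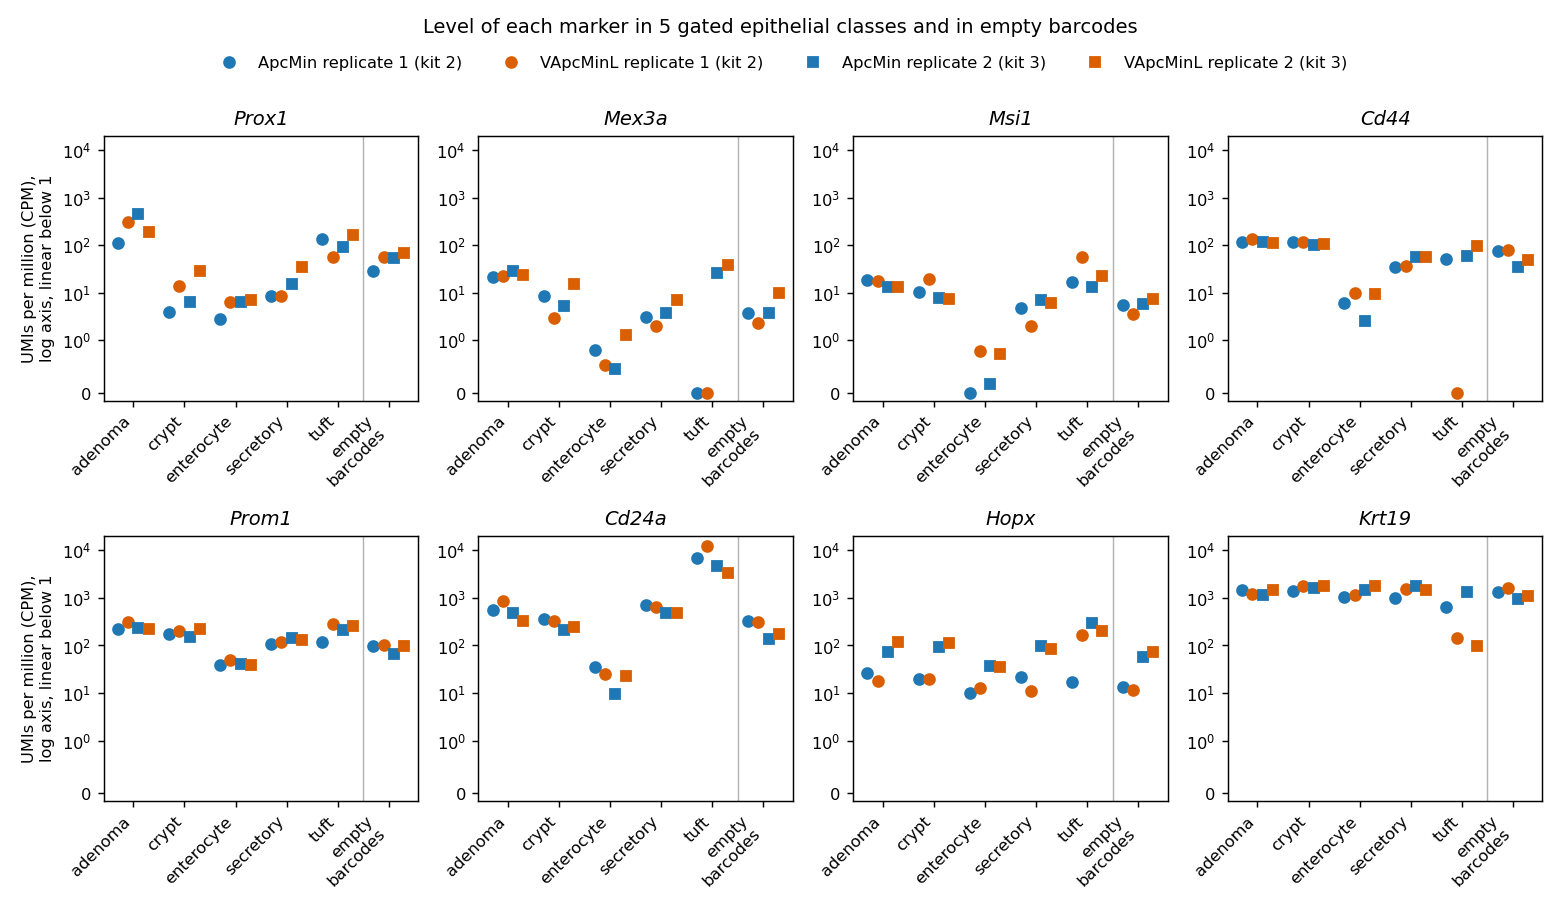
Level of each of the 8 markers in CPM (UMIs per 1000000 UMIs of the class, log axis that is linear below 1) in adenoma, crypt, enterocyte, secretory and tuft cells and in empty barcodes of 1 to 100 UMIs, with 1 point per library. Prox1 adenoma points (111 to 439 CPM) lie above the empty barcodes and its crypt points (3.97 to 28.1 CPM) below them, Cd24a is highest in tuft cells, and the 2 kit 3 libraries lie above the kit 2 libraries for Hopx.

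Adenoma cells were divided by cycling genes, since several of the markers are known from slowly dividing cells. Cycling cells had at least 10 UMIs of 10 mitotic genes per 10000 UMIs and non-cycling cells fewer than 2. Of the 8 members, 5 were lower in cycling cells and 0 were higher, where 47.5% of the 11166 genes tested were called, 24.9% lower and 22.6% higher. Cycling cells were also the deeper ones, with 30181 against 18212 UMIs per cell in ApcMin replicate 1 and the same direction in the other 3 libraries. With all cells thinned to 2000 UMIs Prox1 was still lower (-1.003 on the log2 scale, edgeR adjusted p = 1.72e-15), as were Cd24a, Prom1 and Krt19. Mex3a and Msi1 then had too few counts to be tested. Thinned levels are still shares of UMIs, so whether cycling cells held fewer UMIs of a member per cell was not tested.

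Prox1 was at 100.2, 208, 294 and 149 CPM in cycling and at 135, 421, 604 and 240.4 CPM in non-cycling adenoma cells. It was lower in cycling cells of every library, by 1.35 to 2.05 times, and the difference was -0.77 (SE 0.08, log2, edgeR adjusted p = 1.51e-05). Cd24a (458, 643, 383 and 297 against 672, 1051, 569 and 371 CPM) had a difference of -0.50 (edgeR adjusted p = 6.53e-05). Prom1 (192, 259, 185 and 179 against 256, 359.8, 259 and 288 CPM) had one of -0.48 (edgeR adjusted p = 0.000103). Cycling cells were below non-cycling cells in each library for all 3 genes. The thinned share of cells with a UMI was the higher in cycling cells in 1 library for Prom1 and in 0 for Prox1 and Cd24a.

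Msi1 had 13.9, 10.8, 9.60 and 11.7 CPM in cycling against 24.0, 20.9, 15.0 and 15.7 CPM in non-cycling cells, a difference of -0.60 (SE 0.12, log2, edgeR adjusted p = 0.00166). In the kit 3 pair alone the Msi1 difference was -0.41 (edgeR adjusted p = 0.0679) and was not called. Krt19 had a difference of -0.39 (SE 0.09, edgeR adjusted p = 0.00285), lower in each library. Against that direction, the thinned share with a UMI was the higher in cycling cells in 2 libraries for Msi1 and in 1 for Krt19. Of the 4 genes used to find reserve cells, Msi1 and Krt19 were called as a lower share of the summed UMIs in cells with mitotic RNA. Mex3a and Hopx were not called. Mex3a was higher in cycling cells of 2 libraries and lower in 2 (-0.17, SE 0.16, edgeR adjusted p = 0.407), and Hopx differed by 0.10 (SE 0.11, edgeR adjusted p = 0.473). Cd44 was at 125, 139, 110.4 and 116 CPM in cycling and 109.8, 123, 111 and 107 CPM in non-cycling cells, with a difference of 0.15 (SE 0.06, edgeR adjusted p = 0.0581) that was called higher by DESeq2 (0.16, adjusted p = 0.0410) and in 3 other settings. Without the library as a block none of the 8 was called.

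In the same comparison 4 of the 19 further stem cell genes tested were higher and 8 lower in cycling cells, with a median of 0.16 on the log2 scale against -0.06 over all genes, and of 15 Wnt targets 1 was higher and 6 lower. Alcam at 0.52 and Lrig1 at 0.46 were higher (edgeR adjusted p of 5.02e-05 and 0.00331), and Cdkn1c at -1.08, Msi2 at -0.76, Clu at -0.75 and Lgr5 at -0.65 were lower (edgeR adjusted p of 0.000113, 1.67e-06, 1.65e-08 and 2.18e-05). All 6 genes of a list of stomach-type genes (Gkn1, Gkn3, Muc6, Atp4a, Bpifb5, Wfdc18) were lower as well, from -0.70 for Gkn1 to -2.31 for Atp4a.

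The level of the markers was then followed along the summed Wnt inhibitor level of the adenoma cells, in cells with 2 to 4, 4 to 8 and 8 or more UMIs of the gate list per 10000. This is a description with no test, as the same list chose the cells. Prox1 was at 75.4, 119 and 381 CPM from the lowest to the highest range in ApcMin replicate 1, and at 58.8, 126 and 461 CPM in VApcMinL replicate 1. In ApcMin replicate 2 it was at 126, 252 and 674 CPM and in VApcMinL replicate 2 at 116, 219 and 527 CPM. Every library thus rose from range to range, and the highest range was 4.56 to 7.84 times the lowest. The libraries with the higher share of cells in the highest range, VApcMinL replicate 1 with 340 of 534 and ApcMin replicate 2 with 172 of 323 cells, were also those with the most Prox1 over all adenoma cells, against 39 of 418 and 186 of 1660 cells in the other libraries.

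Mex3a was 1.31 to 3.04 times, Cd24a 1.55 to 2.18 times and Msi1 1.33 to 1.89 times higher in the highest than in the lowest range, in all 4 libraries each. In thinned cells the share with a UMI was higher in the highest range in 2 of the 4 libraries for Mex3a and in 3 for Msi1. Cd44 went the other way, from 125, 225, 154 and 112 CPM in the lowest range to 92.7, 85.6, 79.1 and 85.0 CPM in the highest, which is 1.31 to 2.63 times lower. Krt19 was 1.61 to 2.50 times and Hopx 1.04 to 1.80 times lower in the highest range of all 4 libraries, and Prom1 was lower in 3 and higher in 1. Against that direction, the thinned share in the highest range was the higher in 2 libraries for Hopx and in 1 for Krt19, and for Prox1, Cd24a and Cd44 all 4 libraries had the direction of the CPM. The cells of the highest range were shallower than those of the lowest in each library (17703 against 25075 UMIs per cell in ApcMin replicate 1), and the thinned shares above are at equal depth.

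**Figure D3:**
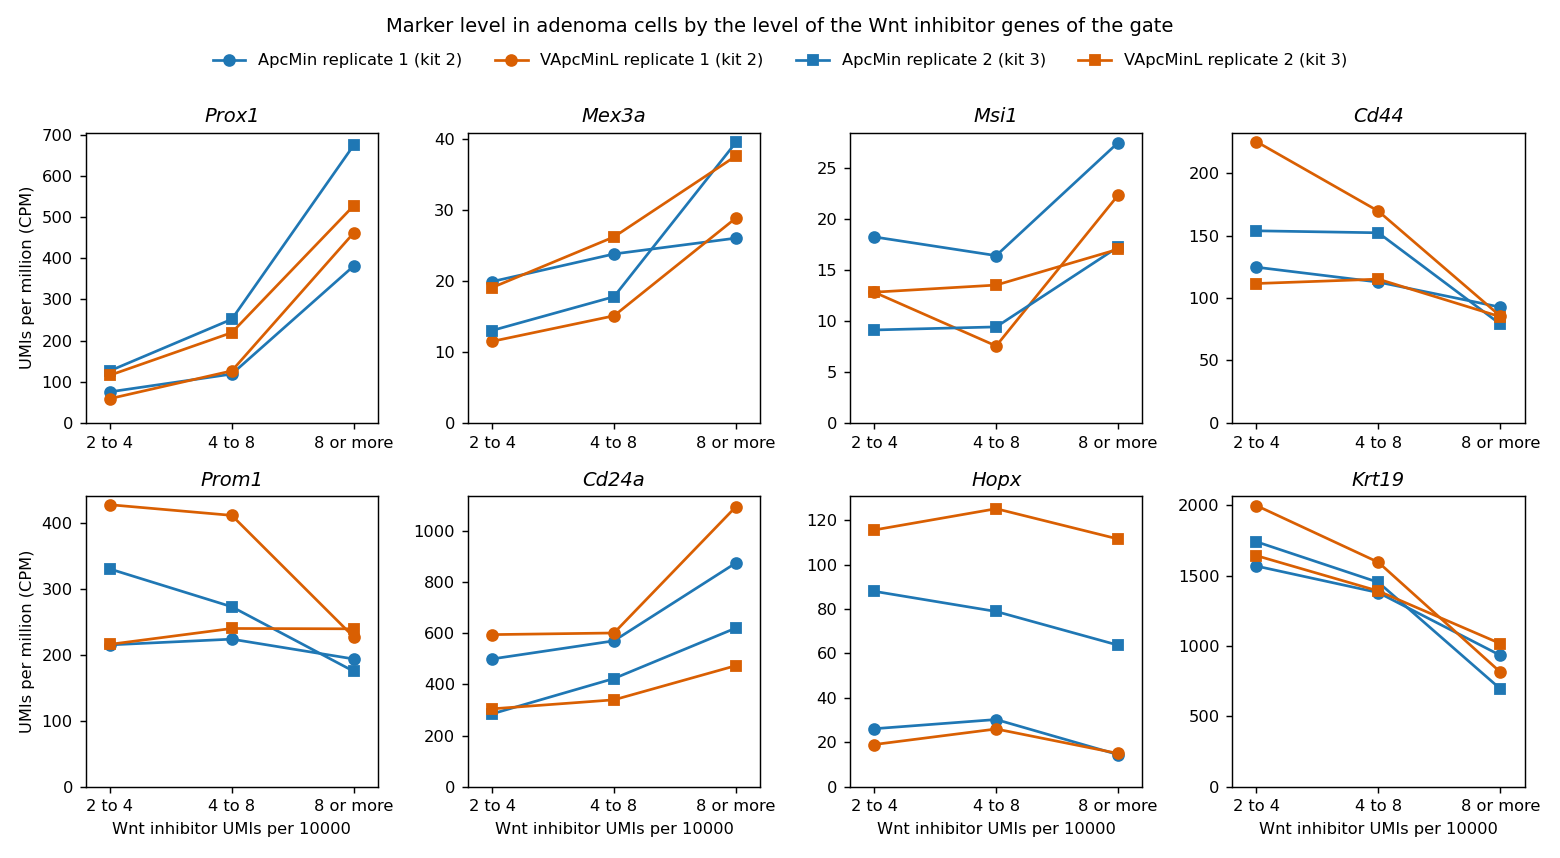
CPM of each of the 8 markers in adenoma cells grouped by the summed Wnt inhibitor UMIs per 10000 UMIs (2 to 4, 4 to 8, 8 or more), with 1 line per library on linear axes that start at 0. Prox1 rises in every library, from 58.8 to 126 CPM in the lowest range to 381 to 674 CPM in the highest, while Cd44 and Krt19 fall.

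Further divisions of the adenoma cells were made after the data had been seen and are also given without a test. Adenoma cells with at least 10 UMIs of the stomach-type genes per 10000 had more Prox1 than the others in every library, by 1.46 to 2.24 times, and more Prom1, by 1.76 to 2.28 times. They were at 277, 326, 268 and 319 CPM of Prom1 against 157, 143, 142 and 152 CPM. Cd24a (1.30 to 1.65 times) and Hopx (1.12 to 1.66 times) were higher in them too, and Krt19 was lower in every library by 1.01 to 1.66 times. After thinning, the share with a UMI was higher in them in 3 libraries for Hopx and in 1 for Krt19. Cells positive for Msx1, a homeobox gene, had less Prom1 than cells with no Msx1 UMI, at 186, 94.7, 101 and 203 CPM against 320.5, 388, 310.3 and 329 CPM. They had more Prox1, at 123, 544, 539.9 and 197 CPM against 94.7, 265, 363 and 164 CPM, and more Msi1, and less Cd44, Hopx and Krt19, in all 4 libraries. Msx1-positive cells were also the deeper ones in each library (30999 against 20458 UMIs per cell in VApcMinL replicate 2). In thinned cells their share with a UMI was the higher in 3 libraries for Msi1 and in 1 each for Cd44, Hopx and Krt19. Prox1 and Prom1, both used as markers of adenoma progenitors, thus moved together in one division and apart in the other.

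The genotypes were compared within each class with the kit as a block, to ask whether the markers depend on Lef1. In adenoma cells 0 of the 8 members were called, where 0% of the 12720 genes tested were called by edgeR's quasi-likelihood test. At an unadjusted p below 0.05 there were 33 genes, and DESeq2 called 5 genes, with 0 members among them. Prox1 had a difference of 0.11 (SE 0.74, log2), with opposite directions in the kits: the library labelled VApcMinL was 1.33 higher in the kit 2 pair and -1.13, that is lower, in the kit 3 pair. Lef1 went in the same directions as Prox1 in these pairs, and so did the share of cells in the highest Wnt inhibitor range.

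Of the other members, Cd44 was the most even, with differences of 0.03 and 0.05 in the kit 2 and kit 3 pairs (0.05, SE 0.20 in the fit). Mex3a (-0.09 and -0.16) and Prom1 (0.38 and 0.04) kept their sign between the kits. Cd24a (0.56 and -0.46), Hopx (-0.67 and 0.80), Krt19 (-0.38 and 0.51) and Msi1 (-0.23 and 0.11) did not. For these 4 genes and Prox1 the kits therefore gave opposite directions. Of the thinned shares of adenoma cells with a UMI, 0 of 8 members had groups of libraries that did not overlap, where 20.7% of the genes tested had such groups (unthinned 1 of 8, Msi1, where 7.25% had). In the other classes the thinned shares did not overlap for Prox1 in crypt cells (1 of 8 members, 27.2% of genes), for Prox1 and Cd44 in enterocytes (2 of 6, 23.1%) and for Prox1 in secretory cells (1 of 7, 24.4%), each higher in the libraries labelled VApcMinL, and for Prom1 in tuft cells (1 of 5, 20.1%), which was lower in them. That tuft share rested on 3 of 7 (ApcMin) and 2 of 7 cells (VApcMinL) in the kit 2 pair. Other measures of Prom1 in tuft cells went the other way. Its mean unthinned share was 81.0% in the libraries labelled VApcMinL against 70.1%, and the fitted difference was 0.63 (SE 0.61, log2). With 2 libraries in each group the smallest p of the exact permutation test is 0.333.

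**Figure D4:**
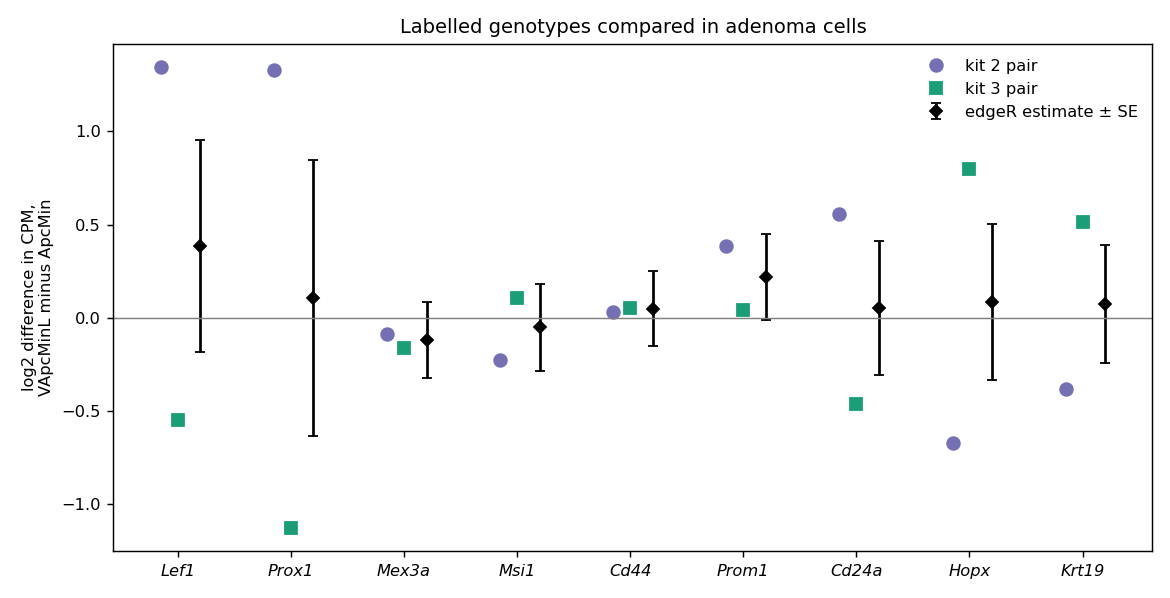
Log2 difference in CPM (VApcMinL minus ApcMin) in adenoma cells for the 8 markers and Lef1, with 1 point per reagent kit and the edgeR estimate with its SE as a black diamond. Prox1 is at 1.33 in the kit 2 pair and -1.13 in the kit 3 pair, and Cd44 is at 0.03 and 0.05.

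No member was called between genotypes in the other classes. In crypt cells 0 of 8 were called (0.0199% of genes, 393 genes at an unadjusted p below 0.05, DESeq2 0 members), in enterocytes 0 of the 6 that passed the filter (0.00946%, 159 genes, DESeq2 0 members), in secretory cells 0 of 7 (0.0305%, 116 genes, DESeq2 0 members) and in tuft cells 0 of 5 (0.478%, 52 genes, DESeq2 0 members). Prox1 in crypt cells had a difference of 1.95 (SE 0.36, log2, edgeR adjusted p = 0.342), and both libraries labelled VApcMinL (13.6 and 28.1 CPM) were above both labelled ApcMin (3.97 and 6.36 CPM). Without the filter on low counts it was called (1.93, edgeR adjusted p = 0.000273). All of these levels were below the empty barcodes of their libraries, and the part of free RNA in the difference was not tested. Krt19 in tuft cells had a difference of -3.08 (SE 0.87, edgeR adjusted p = 0.0608), but rested on few cells, as described above. Whether the difference between adenoma and crypt cells depended on genotype was tested as an interaction, in which 0 of 8 members were called (0% of 12460 genes, 358 genes at an unadjusted p below 0.05, DESeq2 0 genes). For Prox1 that term was -2.18 (SE 0.61, edgeR adjusted p = 1.00).

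The genes whose levels were most like those of each member were sought over the 20 profiles of library and class, after centring each library, among 9432 genes. The values describe profiles that share libraries and depth, and they have no test. Most like Prox1 were Dlgap4 (Pearson r = 0.957), Rbms3 (0.942) and Marcksl1 (0.936). Among those most like Cd44 were Hmgn2 (0.984) and Wwp1 (0.981), and most like Mex3a were Ptk7 (0.971), Macc1 (0.970) and Mvb12b (0.968). For Prom1 they were Srrm2, Aasdhppt and Umps (0.973 to 0.976), for Cd24a they included Nek7 (0.977) and Reep5 (0.974) and for Msi1 Nmt2, Ubald1 and Riok1 (0.959 to 0.971). Hopx was followed by Ncoa6, Mprip and Klf9 (0.937 to 0.943), and Krt19 by Nek6, Slc16a1 and Lad1 (0.948 to 0.972). Members were left out of this search, and among them the closest pair was Prom1 and Msi1 (0.924), followed by Cd24a and Msi1 (0.849), whereas Krt19 ran against Hopx (-0.62) and Cd24a (-0.56). Among single adenoma cells within each library, Prom1 and Msi1 had r of 0.0221, 0.0133, -0.106 and 0.0187, and Cd24a and Msi1 of 0.0162 to 0.189.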

How the data were processed

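Small intestinal adenomas were profiled with 10x Genomics 3′ libraries, 2 labelled ApcMin and 2 labelled VApcMinL. The authors deposited raw UMI counts per gene and barcode for all barcodes, without normalization. Per the labels, reads were processed with Cell Ranger 2.1.1 on mm10 (GRCm38) and analysed with Seurat 3.1.1, while the file headers of the kit 3 matrices name 3.1.0 of Cell Ranger. The gene tables held 27998 genes (kit 2) and 31053 genes (kit 3), so counts of a gene whose annotation differs are not comparable across kits. The 27514 genes whose identifiers the tables shared were used, and the remaining genes held 0.192% to 0.568% of UMIs.

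Barcodes with at least 2000 UMIs and at most 20% mitochondrial UMIs were kept as cells. Epithelial cells were below the immune and stromal cut-offs (20 and 10) and had 2 or more of Epcam, Cdh1, Krt8, Krt18 and Cldn7 at a summed level of at least 10 UMIs per 10000. They were assigned by summed marker UMIs per 10000: adenoma at least 2 from 2 or more genes, crypt at least 2 with an adenoma sum below 1, both with an enterocyte sum below 100, enterocyte at least 400, tuft at least 20 from 3 or more genes, goblet at least 100, Paneth at least 50 and enteroendocrine at least 10 from 2 or more genes. Cycling adenoma cells had a summed level of at least 10 UMIs per 10000 of the mitotic genes, and non-cycling cells below 2. The cut-offs were set after the data had been seen, from the distributions of the gate genes, without the 8 members. Cells that passed several gates were left out, which stands in for a doublet caller, and Scrublet (scanpy 1.11.5) was an alternative. Cells of 1 library are not replicates, so counts were summed per library and class and tested with edgeR 4.0.16 (TMM scaling, default filter on low counts, quasi-likelihood F test, Benjamini-Hochberg adjustment over all genes tested, called below 0.05). Genes of the gates were left out of comparisons between classes, which had the library as a block. Genotypes were compared with the kit as a block, since the labels give the kit of each replicate number, and deviations of same-kit libraries from the group means correlated with r = 0.122 over 12720 genes in adenoma cells. Levels per gene use 3′ ends and are not scaled by length. The edgeR fit was tried first on simulated data with known answers, for genotypes in adenoma cells and for adenoma against crypt cells. The other comparisons and the exact permutation test were not simulated. Exact (Clopper-Pearson) 95% intervals and the limit that a count of 0 allows (3 counts) cover counting error only. Alternatives were DESeq2 1.42.0, RLE size factors, no filter on low counts, no block, other floors, gates, doublet removal, thinning to 2000 UMIs, each kit alone and leaving out each library. R 4.3.3 and Python 3.11.15 were used. The 8 members were named throughout, with Lef1, up to 6 called genes of the largest change in each list, and the 3 genes most like each member, of which 2 are not reported here. The members and lists were chosen with earlier results of these data known, and 0 columns of the files were unused.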

Additional observations from a re-analysis of the deposited data

Results flagged for a closer look

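Prox1 in adenoma cells moved in opposite directions in the kits. The library labelled VApcMinL was higher than the library labelled ApcMin by 1.33 on the log2 scale in the kit 2 pair (305 against 111 CPM), and its difference was -1.13 in the kit 3 pair (187 against 439 CPM). With 1 library per group in a pair, the difference between the pairs was not tested. Lef1, the gene that the VApcMinL genotype deletes in the epithelium, moved the same way in each pair (1.35 and -0.54), and its part in the Prox1 values was not tested.

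Cd44 in immune and stromal cells and Mex3a in stromal cells lay above the empty barcodes of the same library, which hold free RNA (34.6 to 78.1 CPM for Cd44 and 2.32 to 9.64 CPM for Mex3a), and Mex3a in immune cells, at 0 to 1.07 CPM, lay below them. Cd44 was at 145, 94.8, 152 and 124 CPM in immune cells and at 113, 91.5, 163 and 161 CPM in stromal cells, which spans its level in adenoma cells. Mex3a was at 10.4, 5.55, 13.6 and 22.4 CPM in stromal cells, from 13, 4, 9 and 6 UMIs.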

How the results depend on the processing

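Of 271 counts of members called that were recomputed under the alternatives, 245 stayed within 1.5 times the reported count and 26 moved. In the kit 3 pair alone, 1 member was called for adenoma against crypt cells, 2 for adenoma against secretory cells, 2 for adenoma against tuft cells, 0 for crypt against secretory cells, 1 for crypt against tuft cells and 1 for secretory against tuft cells. In the kit 2 pair alone, 4 were called for enterocyte against secretory cells, 5 for enterocyte against tuft cells and 3 for secretory against tuft cells. With cells thinned to 2000 UMIs the counts were 3 for adenoma against secretory, 5 for enterocyte against tuft and 3 for secretory against tuft cells. Without the replicate block 3 were called for secretory against tuft cells and 0 for cycling against non-cycling cells, and Cd24a lost its call against crypt cells. Without the filter on low counts 1 was called between genotypes in crypt cells (Prox1) and 1 in the interaction of class and genotype. In tuft cells 1 (Krt19) was called between genotypes with a lower floor of UMIs, with the alternative adenoma gate and without VApcMinL replicate 1. With unthinned shares in adenoma cells, 1 member (Msi1) had groups that did not overlap, where 7.25% of genes had such groups.

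Leaving out each library gave 2 to 3 members for adenoma against crypt cells, 6 to 7 against enterocytes, 3 to 5 against secretory and 2 to 3 against tuft cells, 5 to 6 for crypt against enterocytes, 1 to 2 against secretory and 3 to 4 against tuft cells, 6 to 7 for enterocytes against secretory and 8 to 8 against tuft cells, 3 to 4 for secretory against tuft cells and 5 to 5 for cycling cells. Between genotypes it gave 0 to 0 in every class but tuft cells, with 0 to 1. Those genotype fits had no block, because none of the spread is left to estimate with it, and they and the divisions of adenoma cells by single genes were chosen after the data had been seen.

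Of 700 values of single members, 631 kept their sign and call, 34 lost a call, 22 gained one and 13 changed sign, all of them values that were not called in the reported fit. Prox1 between genotypes in adenoma cells was -0.078 without the block, and also without it -0.70 to 1.03 with each library left out (-0.70 without ApcMin replicate 1 and -0.55 without VApcMinL replicate 1). Cd44 against crypt cells was -0.048 with a mitochondrial limit of 10%, -0.21 with gate cut-offs doubled and -0.016 in the kit 2 pair. Hopx against crypt cells was 0.081 in the kit 2 pair and -0.22 to 0.050 with each library left out, and against secretory cells 0.012 and -0.39 to 0.073. Mex3a against tuft cells was -0.11 in the kit 3 pair and between cycling and non-cycling cells -0.35 to 0.014 with each library left out. Hopx between cycling and non-cycling cells was -0.11 in thinned cells. The cause of these changes was not tested. Prox1 against crypt cells was called under every alternative.

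The number of genes called for adenoma against crypt cells ranged from 816 (thinned) to 3912 (no filter) around 3357, and for cycling cells from 1124 (no block) to 5828 (no filter) around 5304. In thinned cells it was 4201 for adenoma against enterocytes (8858 reported), 2254 against secretory cells (4926), 3634 for crypt against enterocytes (8244) and 2909 for enterocyte against secretory cells (7465). In 1 kit alone it fell to 997 for adenoma against tuft (2964), 1302 for crypt against secretory (3490), 1051 for crypt against tuft (2897), 1546 for enterocyte against tuft (4192) and 780 for secretory against tuft cells (2106). Between genotypes it ranged from 0 to 5 in adenoma cells (0 reported), 0 to 91 in crypt cells (2), 0 to 38 in enterocytes (1), 0 to 12 in secretory cells (3), 0 to 69 in tuft cells (8) and 0 to 98 for the interaction (0). Depth limits Mex3a and Msi1 outside adenoma cells and every value in tuft cells, and 2 libraries per group limit every genotype comparison.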

Other observations

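Lyz1, the lysozyme of Paneth cells, also divided the adenoma cells, as values with no test. Cells with at least 1 Lyz1 UMI per 10000 had less Prox1 than cells with no Lyz1 UMI, at 82.7, 163, 250.1 and 154 CPM against 129, 341, 514 and 211 CPM. Mex3a was lower in them as well, at 19.0, 10.8, 13.9 and 18.2 CPM against 23.5, 25.2, 32.3 and 25.5 CPM, and so was Cd24a in all 4 libraries, by 1.07 to 1.64 times. Prox1, Mex3a and Cd24a, the 3 members that were higher in adenoma than in crypt cells, thus had a lower CPM in the Lyz1-positive adenoma cells of every library. Lyz1-positive cells were the deeper ones in VApcMinL replicate 2 (30643 against 24319 UMIs per cell), and UMIs of these members per cell were not compared.

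Hopx was near 0 in stromal cells, at 2.39, 0, 4.54 and 3.74 CPM from 3, 0, 3 and 1 UMIs. In enteroendocrine cells Hopx was at 76.96, 23.6, 397 and 230.5 CPM, from 6, 1, 61 and 69 UMIs.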
